A study of Rattus norvegicus with 4 samples.

Results

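The potassium channel genes of the rat array were examined in NR8383 cells, an alveolar macrophage line that came from the lung lavage of a rat. The members are the non-control probes whose gene name in the array files is Kcn followed by letters and a final number. This rule gave 92 genes, measured by 146 probes on 177 spots, out of 17582 genes with a symbol and 45598 probes. The rule used names alone and no measured value. It leaves out Kcnrg, whose name has no final number, and no probe under another name had an accession that RefSeq assigns to such a symbol. All 4 samples are controls kept submerged in medium with 15% heat-inactivated fetal bovine serum, 2 mM glutamine, penicillin, streptomycin and amphotericin B, and were taken after 20 passages. One label states a submerged time of 4 h and another a culture of 48 h after seeding, and how these times relate is not stated. The line grows partly attached and partly floating, and the labels do not say which cells were collected. With 1 group there is no comparison between conditions, so the values describe which channel genes gave signal and how far 4 replicates of 1 cell line differed.

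Potassium channels are membrane proteins that let potassium ions pass down their electrochemical gradient, and the flow usually sets the resting potential of a cell. Voltage-gated channels open on depolarisation, inward rectifiers pass current best at negative potentials, two-pore-domain channels carry background current, and a further group opens with intracellular calcium or sodium. Auxiliary subunits bind the pore and change its gating or traffic. In macrophages these channels shape calcium entry, volume and migration, and loss of cell potassium is a known trigger of the NLRP3 inflammasome.

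Each sample was hybridised to 1 one-colour array, all on 1 slide. The 75th percentile of the signal ranged from 958.2 to 1489.4 fluorescence units over the arrays, and no spot was saturated. Detection used the scanner software's own flag for spots well above background: a probe needed it on more than 0.5 of its usable spots of an array, and a gene needed at least 1 probe that passed on all 4 arrays. The faintest flagged signal was 16.65 to 20.3 units by array, and the brightest signal without the flag 21.6 to 28.1 units, so the limit is a narrow band. Levels are log2 signal relative to the array's 75th percentile, so a level of 0 is at that percentile, and levels of different probes are not comparable with each other. Of 16 macrophage markers 13 were detected, while Cd163 and Marco were detected on no array and Adgre1 on 1. None of 10 neuron markers was detected, against 3 of 10 heart and skeletal muscle markers (Acta1, Tnni2 and Tnnt2) and 2 of 8 lung epithelium markers (Ager and Foxj1).

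Fewer than the array's usual share of genes passed the detection rule among the potassium channels. Of the 92 genes, 21 (22.8%) were detected on all 4 arrays, 14 (15.2%) on 1 to 3 arrays and 57 (62.0%) on none. Over all genes with a symbol, 55.8% were detected on all 4 arrays and 7.22% on 1 to 3. On at least 1 array it was 35 members (38.0%), beside 63% of all genes. The count depends on the flag: with the scanner software's less strict flag for a positive and significant signal, 39 of the 92 (42.4%) passed on all 4 arrays, beside 66.2% of all genes. By probe the share was 25 of 146 (17.1%), beside 42.5% of all probes. Counts of member genes on single arrays were 30, 31, 24 and 26 for replicates 1 to 4. Over all genes with a symbol they were 10704, 10659, 10212 and 10082, lowest on replicate 4. Among other ion channels counted the same way, 1 of 14 sodium channel genes (Scn), 5 of 26 calcium channel genes (Cacn), 8 of 25 TRP channel genes and 6 of 9 chloride channel genes (Clcn) were detected. These differences between channel families were not tested. Of 20 channel genes listed from work on macrophages, 10 were detected on all arrays, Kcnj11 on 2 and 9 on none. In these bulk samples fewer cells with a transcript and less transcript per cell cannot be told apart.

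Voltage-gated pore subunits formed the largest class, and 4 of its 30 genes were detected on all arrays, 5 on some and 21 on none. Kcna3 encodes Kv1.3, the channel long studied in T cells and macrophages. Its 1 probe (rn4 chromosome 2, 202474156 to 202474215) lay at -4.06, -4.32, -4.08 and -4.36 on replicates 1 to 4, which is 46.8 to 79.0 fluorescence units. All 4 values were above the band of the limit and within a 1.23-fold range, with replicates 1 and 3 above 2 and 4. Kcna6, another Shaker-type subunit, lay at -4.48, -4.77, -5.43 and -4.39, lowest on replicate 3. Kcnq1, the pore of the slow cardiac and epithelial current, lay at -4.46 ± 0.22 (SD, n = 4), and Kcnh3, an ether-a-go-go type subunit best known from forebrain, at -3.33 ± 0.15. Kcna5 (Kv1.5), reported as a partner of Kv1.3 in macrophages, was detected on no array, with signals of 3.90 to 4.75 units. Kcna2 was likewise detected on none, and so was Kcnh2, the HERG channel, with 3.50 to 4.23 units. In all, 6 of 8 Kcna genes, 4 of 5 Kcnq genes and 6 of 8 Kcnh genes were detected on no array. No Kcnb, Kcnc or Kcnd gene was detected on all arrays, although Kcnc2 passed on 3 and Kcnd3 on 1. Kcnh4 passed on 2.

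Modifier subunits of the Kv5, Kv6, Kv8 and Kv9 families form no channel alone and join other voltage-gated subunits. Of 10 such genes 2 were detected on all arrays, Kcnv2 at -4.43 ± 0.23 and Kcng1. Kcng3 passed on 3 arrays and Kcns2 on 2. Kcng1 lay at 3.39, 2.91, 2.34 and 2.51, but its 2 probes disagreed. The other probe was detected on no array and lay between -8.17 and -7.01. Their sequences are shown because they differ in kind, with the bases that the detected probe shares with a probe of another gene name in capitals. The detected probe is placed on rn4 chromosome 3, 159427597 to 159427643 on the minus strand. Its last 30 of 60 bases and the first 30 of the other probe (159427825 to 159427884) read, 5′ to 3′:
Kcng1 detected probe: GGAGGAGGAGGAGGAAGAGGAGGAGGAGGA
Kcng1 other probe: ggggacaccaacaagccggtcatctctgct
The detected probe is built of repeated triplets and holds 6 different 3-base words, against a median of 36 over all probes. Only 5 of the array's 45598 probes, itself included, have as few, which is 0.011%. It shares a run of 37 bases with the probe of LOC102553302. Counting that name, it shares runs of at least 20 bases with probes of 6 other gene names. It is the only 1 of the 146 member probes with such a run, against 5.41% of all probes.

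Among those 6 names, 4 have probes made of few words like the Kcng1 probe, with 6 or 7 each. Levels on replicates 1 to 4 were 3.24, 2.81, 2.07 and 2.36 for the LOC102553302 probe. The Pigr probe lay at 3.66, 3.24, 2.60 and 2.90, the Mitf probe at 3.58, 3.33, 2.75 and 3.08, and the CF107865 probe at 1.54, 1.49, 0.96 and 1.13. These 4 were highest on replicate 1, then 2, then 4, and lowest on replicate 3, as the detected Kcng1 probe was. Over all detected probes 4.01% had this order. The other 2 share a run but are more varied, with 33 and 28 words. Lmnb1 had the same order, at 0.42, 0.22, -0.28 and 0.12, and Vom2r-ps20 had another, at 3.83, 3.75, 3.78 and 3.33. The undetected Kcng1 probe also had the order of the detected one, at background signal. The repeat was looked for after the values were seen. Which RNA bound the repeat probes was not tested, and without probes that share such a run Kcng1 has no detected probe and the count of members is 20.

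The calcium- or sodium-activated class had 4 of 7 genes detected on all arrays and 2 on none. Kcnn4 encodes KCa3.1, the intermediate conductance channel of blood cells, and both of its probes were detected on every array. The brighter one, on rn4 chromosome 1 at 79628697 to 79628756, lay at -3.89, -3.49, -4.02 and -2.69. The other, at 79627673 to 79627732, lay at -5.13, -4.63, -5.39 and -4.01. Both were highest on replicate 4 and lowest on replicate 3, and their deviations from their own means were 0.83 and 0.78 on replicate 4 and -0.50 and -0.60 on replicate 3. The small conductance subunit Kcnn3 lay at 0.06, -0.11, -0.09 and -0.14, within a 1.15-fold range. Its relative Kcnn1 was detected by both probes, the brighter at -3.00 ± 0.11. Kcnn2 was detected on no array, nor was the sodium-activated channel Kcnt1, and Kcnt2 passed on replicate 4 alone.

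Kcnma1, the pore of the large conductance (BK) channel, rests on 1 of 2 probes. The detected probe starts at base 5393 of its transcript, has no rn4 position in the files, and lay at -1.34, -1.74, -2.16 and -0.47. This 3.24-fold range was the widest among the 21 genes. The probe at base 3543 (rn4 chromosome 15, 904814 to 904873) was detected on no array. The first 30 bases of each are shown because they give opposite calls for 1 accession:
Kcnma1 detected probe: ctgtcaaggaaatgacttttcttcaaattt
Kcnma1 other probe: aatgttcagtttttggaccaagacgatgat
Of the BK beta subunits Kcnmb2 passed on 3 arrays, and Kcnmb1, Kcnmb3 and Kcnmb4 on none.

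Inward rectifiers had 1 of 15 genes detected on all arrays, 2 on some and 12 on none. That gene was Kcnj14 (Kir2.4), at -3.30, -3.27, -3.33 and -3.13 on rn4 chromosome 1 (96293795 to 96293854). Kcnj2 (Kir2.1), the inward rectifier commonly described in macrophages, was detected on no array by either probe, and its brighter probe gave 4.2, 8.46, 8.38 and 11.9 units. The ATP-sensitive pore Kcnj11 passed on replicates 2 and 4, and Kcnj8 on none. Their sulphonylurea receptors Abcc8 and Abcc9 were detected on 0 and 1 arrays. Kcnj3, a G protein-gated pore, passed on replicates 1 and 2, with a level of -3.41 on replicate 1 and -5.61, -6.72 and -5.49 on the others.

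Two-pore-domain channels had 4 of 14 genes detected on all arrays. Kcnk6 (TWIK-2), described as a route of potassium loss in macrophages, was detected by both probes. The brighter one (rn4 chromosome 1, 84359796 to 84359855) lay at 0.00, 0.08, 0.13 and 0.05, a 1.09-fold range, and the other at -2.89, -2.49, -2.51 and -2.48. Kcnk13 (THIK-1), known from microglia, lay at -1.18, -1.12, -1.22 and -1.20 on 1 probe. Its SD of 0.04 was the smallest among the 25 detected probes. The other 2 probes of Kcnk13 were detected on 1 and 2 arrays. Kcnk12 (THIK-2), the closest relative of Kcnk13, lay at -4.55, -4.93, -5.62 and -4.28. The acid-sensitive Kcnk5 (TASK-2) lay at -5.50, -5.86, -5.64 and -4.53, near the detection limit. Kcnk16 and Kcnk7 passed on 1 array each. Kcnk1 and Kcnk2 were detected on none, as were Kcnk3, Kcnk4, Kcnk9, Kcnk10, Kcnk15 and Kcnk18.

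Auxiliary subunits had 6 of 16 genes detected on all arrays. Kcnab2, the Kv1 beta-2 subunit, whose family resembles aldo-keto reductases, lay at 3.72, 3.64, 3.76 and 3.76 on a probe of 10 spots (rn4 chromosome 5, 169621738 to 169621797). The SD between spots on 1 array was 0.03 to 0.05, and the SD between arrays 0.06. Its second probe was also detected on all arrays, at -4.17 to -3.90. Only this second probe matched Kcnab2 in RefSeq, and the 10-spot probe did not. With the detected probes averaged, the level of Kcnab2 was -0.16 rather than 3.72. Kcnab1 lay at 0.34, 0.24, 0.12 and 0.08 on 1 of 2 probes, and Kcnab3 was detected on no array. The single-span subunits Kcne2 and Kcne4 lay at -3.99 ± 0.12 and -4.51 ± 0.23, each on 1 of 2 probes. Kcne1, Kcne3 and Kcne5 were detected on none, Kcne3 with 4.2 to 5.22 units. The KChIP calcium-binding subunits Kcnip2 and Kcnip1 lay at -2.97 ± 0.06 and -5.08 ± 0.38, Kcnip3 passed on replicate 1 alone and Kcnip4 on no array. Their usual pore partners, the 3 Kcnd genes, had none detected on all arrays, and Dpp6 and Dpp10, which join the same complexes, were detected on none.

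The call of a gene often rested on 1 of several probes. Of the 21 detected genes 8 have 1 probe and 13 have more. In 9 of these 13 at least 1 probe was not detected on all arrays, and in 6 of them at least 1 was detected on no array. Over all detected genes with several probes, the probes differed in 36.3%. The 4 genes whose probes were all detected were Kcnab2, Kcnk6, Kcnn1 and Kcnn4. With every probe required, 12 of the 92 genes were detected, and Kcnab1, Kcne2, Kcne4, Kcng1, Kcnh3, Kcnip1, Kcnip2, Kcnk13 and Kcnma1 were not. Of all genes, 48.5% were detected under that rule.

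Where probes of 1 accession differed, the later one was mostly the detected one. In 6 genes 1 of exactly 2 probes of the same accession was detected on all arrays and the other was not. The detected probe was the later one in the transcript in 5 of them. Its start was base 1600 rather than 556 in Kcne2, 3632 rather than 2532 in Kcnh3, 2241 rather than 569 in Kcnip2, 1947 rather than 318 in Kcnk13, and 5393 rather than 3543 in Kcnma1. Kcnip1 went the other way, with base 788 detected and 1580 not. Over all genes the later probe was the detected one in 57.4% of 465 such pairs, so 5 of 6 is a description of few pairs. Besides Kcnma1, the pairs of Kcnh3, Kcnip2 and Kcnip1 are those among these 6 where 1 probe was seen on all arrays and its partner on none; the first 30 bases of each are shown for reference:
Kcnh3 detected probe: gcatgtgcccatctccactgtcctctgtcc
Kcnh3 other probe: ttttgaagcctgaggctggtccttctgctc
Kcnip2 detected probe: cgtttccccatccgtcagacatggttgact
Kcnip2 other probe: cgaatgccccagtgggattgtcaacgagga
Kcnip1 detected probe: tcctgtcaggaggatgacaacatcatgagg
Kcnip1 other probe: gtccagaatgcctgtgaaatgctgtaactt
None of these probes shares a run of 20 bases with a probe of another gene name. The detected Kcnip1 probe spans 2219 bases of rn4 against its own 60. Median GC content was 45% in the 25 detected and in the other member probes.

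The range over the arrays ran from 1.07-fold for Kcnk13 to 3.24-fold for Kcnma1. Of the 21 detected genes 6 (28.6%) spanned more than 2-fold (Kcna6, Kcng1, Kcnk12, Kcnk5, Kcnma1 and Kcnn4), beside 2.83% of all detected genes. This share takes no account of signal. Set against the SD fitted for like signal, the median ratio was 0.94 for the member probes and 0.93 for all. That median does not describe the 6 genes, whose ratios were above it. They were 5.91 for Kcnma1, 4.97 for Kcng1, 3.19 for the brighter Kcnn4 probe, 2.23 for Kcnk12, 1.97 for Kcnk5 and 1.83 for Kcna6. The lowest values of Kcnk12, Kcnk5 and Kcna6 lay within or near the band of the detection limit. The median SD of the 25 detected probes was 0.16, beside 0.13 over all detected probes. Each probe's residual variance was set against the prior variance that limma fitted for detected probes of like signal. This was an F test, adjusted by Benjamini-Hochberg over 19400 probes. No member passed at 0.05, while 33 of all detected probes (0.17%) did. The lowest adjusted p were 0.086 for Kcnma1, whose SD of 0.72 was 5.91 times the fitted value, and 0.12 for the Kcng1 repeat probe (SD 0.47, 4.97 times). The brighter Kcnn4 probe had 0.34 and its second probe 0.67, and Kcnk12 had 0.73. At an unadjusted p under 0.05 there were 5 of 25 member probes (20%), on Kcnma1, Kcng1, Kcnn4 (both probes) and Kcnk12, against 6.5% of all detected probes. The Kcnma1 call changes with single libraries, since its adjusted p was 0.035 without replicate 1 and 0.049 without replicate 2, and that of Kcng1 was 0.046 without replicate 4.

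Some members ranked the arrays alike. Kcnma1, Kcnk12, Kcna6 and Kcnh3 were all highest on replicate 4, then 1, then 2, and lowest on replicate 3. On replicate 3 Kcnk12 gave 24.0 units and Kcna6 27.4, while the brightest signal without the flag was 25.7 there. Kcnh3 was nearly level on replicates 1 and 2, at -3.279 and -3.284. The order 4, 1, 2, 3 was seen in 4 of 25 detected member probes (16%), and in 5.62% of all detected probes. The detected Kcnn4 probes had replicates 4 and 3 at the same ends, with 2 above 1 between them. This order was picked after the values were seen, and its cause was not tested.

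Genes that work beside the channels were taken from a list of 46, of which 22 were detected on all arrays and 18 on none. The sodium-potassium pump, which builds the potassium gradient, had its subunit gene Atp1b3 at 1.92 ± 0.09, with Atp1b1 and Atp1b2 on no array. Potassium-chloride cotransporters gave Slc12a7 at -0.72 ± 0.05 and Slc12a4 at -1.56 ± 0.24. The lysosomal potassium-permeable channel Tmem175 lay at -2.29 ± 0.06. The BK gamma subunit Lrrc38 lay at -1.93 ± 0.12 on 1 of 2 probes, while Lrrc26 passed on 3 arrays and Lrrc52 and Lrrc55 on none. Of the genes tied to potassium loss and the inflammasome, Nek7 lay at 1.56 ± 0.14 and P2rx4 at -2.97 ± 0.24, while the 1 probe of P2rx7, an ATP-gated channel, gave no detected signal. No detected gene of the list passed the variance test, and the lowest adjusted p was 0.24 for Atp12a (limma).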

How the data were processed

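The deposited Agilent Feature Extraction files give fluorescence intensity per spot on a linear scale. Per the file headers, version 11.0.1.1 subtracted background and detrended the processed signal, with no normalization between arrays; probe coordinates are on rn4. Spots with non-uniformity or population outlier flags were left out, log2 signal was centred on each array's 75th percentile, and replicate spots were averaged. A gene's level is that of its brightest detected probe. Replicate variance was tested by limma (3.58.1, R 4.3.3; intercept fit, robust prior with an intensity trend, Benjamini-Hochberg at 0.05), after tests on simulated data. RefSeq (GRCr8) served for names alone, and 129 of 146 member probes matched by accession. Values are given for members detected on at least 1 array and for listed macrophage channels; other members are counted or named. Members, lists and rules were chosen with earlier results of these data known. The design text calls the samples biological replicates. The number of arrays, 4, limits the precision. Some listed genes are not reported here.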

Additional observations from a re-analysis of the deposited data

Results flagged for a closer look

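One gene stood apart on 1 array. Kcne4 lay at -4.37, -4.40, -4.41 and -4.84 on replicates 1 to 4, and the gap below the lowest was 0.902 of the range, above the 95% critical value of the Dixon test for 4 samples. That is 1 of the 21 detected genes (4.76%), beside 5% of all detected genes, and chance gives about 1 in 20.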

How the results depend on the processing

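No paired analysis was possible because all 4 samples belong to 1 group. With the positive and significant flag 39 of 92 genes were detected (66.2% of all genes), and with every probe required 12 (48.5%). With at least 2 arrays the count was 30 (60.1% of all genes), and with flagged spots kept 21 (55.8%). With a replicate left out it was 21 to 24 (55.8% to 56.9% of all genes). In settings chosen after seeing the data it was 20 of 92 without probes sharing a run of 20 bases (56.5% of all genes). It was 19 of 91 with probes placed on rn4 only (without Kcnk13 and Kcnma1), beside 55.7% of all genes. With accession-matched probes only it was 19 of 90 (without Kcne4 and Kcng1), beside 59.5% of all genes. Member probes past the variance test numbered 2 with normexp (Kcnma1 and Kcng1), 5 with no filter on dim probes (Kcnma1, Kcng1, Kcnn4, Kcnd3 and Kcnj3) and 0 to 1 with a replicate left out, where Kcnma1 or Kcng1 passed. Of all probes tested, 1.39% passed with normexp, 2.46% with no filter and 0% to 0.386% with a replicate left out. Without replicate 3 no probe of the array passed, so the 0 members there was fixed. Over all settings the adjusted p (limma) of Kcnma1 ran from 1.02e-13 to 0.92 and that of Kcng1 from 1.13e-11 to 0.92, the ends being no filter and no intensity trend. The other settings gave 0 members. Of all probes tested, 0.149% passed with quantile normalization, 0.258% with the median scale and 0.206% with flagged spots kept. With no robust step, no intensity trend or a threshold of 0.01, no probe of the array passed. The 0 members under those settings was therefore fixed and says nothing about the members. Scaling on the median of detected probes raised levels by a median of 1.58. With normexp the 21 members rose by a median of 0.57, beside a median of 0.18 over all detected. For each change the cause was not tested.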
